A study of Homo sapiens with 12 samples.

Results

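SK-N-SH cells transfected with an siRNA against SUV39H1 (siSUV39H1, 3 libraries) were compared with SK-N-SH cells given the solvent DMSO (3 libraries), which are 6 of the 12 RNA libraries of the series. The members are all libraries whose treatment label names si-SUV39H1 or DMSO, and 15051 of the 18739 genes in the deposited table passed a filter on low counts and were tested. SK-N-SH is an established human neuroblastoma line, kept here in MEM with fetal bovine serum. Its genotype label reads SUV39H1-knockdown for siSUV39H1 and WT for the other groups used. Another group of 3 libraries, transfected with a control siRNA (siNC), was set between both, so that the net difference could be read as a control-siRNA step (siNC minus DMSO) and a knockdown step (siSUV39H1 minus siNC). The design text speaks of shNC and shSUV39H1 constructs where the sample labels say siRNA, and the labels are followed here. No transfection is named for the DMSO cells, and no solvent for the transfected cells, so transfection, siRNA and solvent cannot be told apart in the net comparison or in the control-siRNA step. The knockdown step compares different siRNAs. Loss of SUV39H1, other effects of its siRNA and effects of siNC alone cannot be told apart in it. The time after transfection, the siRNA dose and the number of different siRNAs are not stated in the sources used here. The 3 chaetocin libraries (50 nM) entered the model fit only.

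SUV39H1 is a histone methyltransferase that places methyl groups on lysine 9 of histone H3, the mark of constitutive heterochromatin, which HP1 proteins bind. SUV39H2 is its close relative and can carry out the same reaction. AURKA encodes Aurora A, the kinase that matures centrosomes and builds the mitotic spindle, and ZC3H12A encodes MCPIP1, an RNase that cuts the mRNAs of inflammatory cytokines and is itself a target gene of NF-kB. NF-kB is kept in the cytoplasm by inhibitor proteins such as NFKBIA and, once freed, switches on chemokines, adhesion molecules and its own inhibitors. SK-N-SH holds cells of a noradrenergic, neuron-like state, driven by factors such as HAND2 and GATA3, and cells of a mesenchymal state. The libraries measure RNA only, so H3K9 methylation, protein and cell number were not measured, and in bulk RNA fewer cells of a type and less RNA per cell cannot be told apart.

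The total of expected counts was 19595821 to 19687556 in siSUV39H1 libraries, 19748841 to 19875841 in siNC libraries and 19644426 to 19976995 in DMSO libraries. Replicates are called biological triplicates, with no culture day or batch named, and p-values measure only the spread between these samples. Replicates of a group differed by 4.52 to 17 times the counting variance, so no pair was a copy. The markers of the line were present: noradrenergic markers summed to 576 to 680 CPM (counts scaled to a common library size) in siSUV39H1 libraries, 488 to 532 in siNC and 948 to 1101 in DMSO, and mesenchymal markers to 9251 to 10581, 10019 to 10378 and 13302 to 13581 CPM.

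In the median over pairs of libraries, siSUV39H1 cells lay farther from DMSO cells than siNC cells did. The root mean square log2 difference between 2 libraries, over all genes tested, was 0.470 to 0.580 for the 9 pairs of siSUV39H1 with DMSO (median 0.51). It was 0.394 to 0.517 for siSUV39H1 with siNC (median 0.43) and 0.418 to 0.487 for siNC with DMSO (median 0.452). The ranges of the net and the control-siRNA distances overlapped. Pairs within a group gave 0.227 to 0.365 among siSUV39H1 libraries, 0.229 to 0.320 among siNC libraries and 0.239 to 0.275 among DMSO libraries, all below the pairs between groups. On the first principal component of these 9 libraries, with 45.6% of the variance, siSUV39H1 libraries scored 17.8, 34.7 and 25.8, siNC libraries 4.82, -2.30 and 10.7, and DMSO libraries -31.9, -28.0 and -31.6. The second component, with 25.1%, placed the siNC libraries at -26.8 to -23.0 and apart from both other groups, which lay at 13.8 to 16.6 (siSUV39H1) and 7.17 to 12.8 (DMSO). The siSUV39H1 libraries were thus beyond siNC on the first axis and near DMSO on the second.

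**Figure D1:**
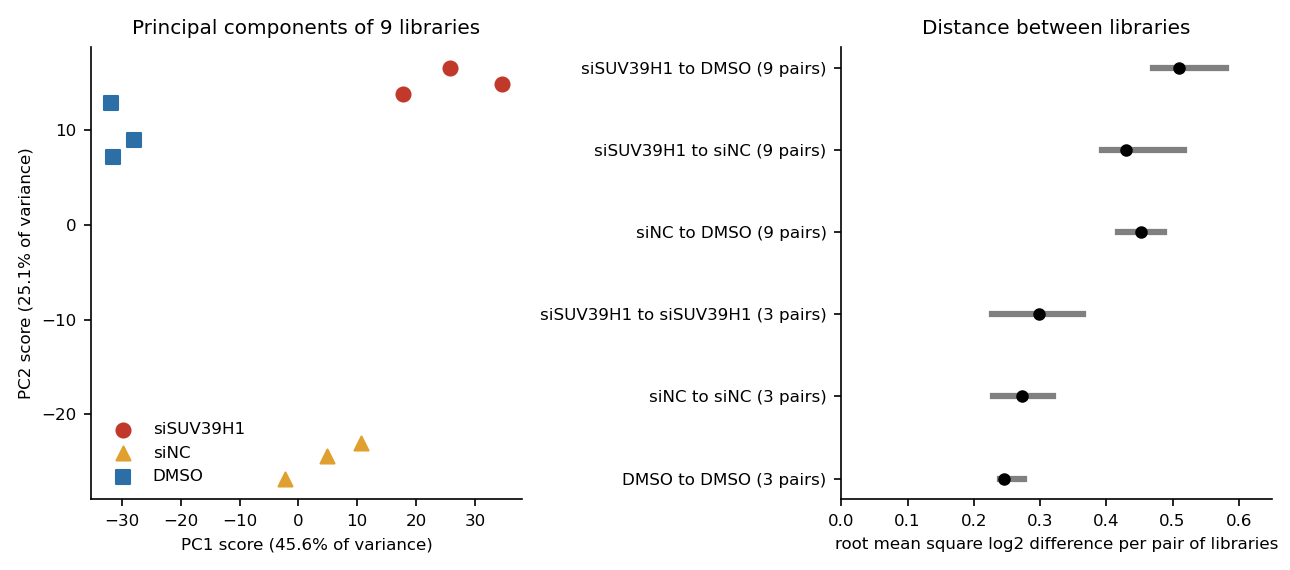
Left, scores of the 3 siSUV39H1, 3 siNC and 3 DMSO libraries on the first 2 principal components of log2 CPM, with the percent of variance on each axis. Right, the root mean square log2 difference between pairs of libraries (dot, median; bar, lowest to highest), where the siSUV39H1 to DMSO pairs have the highest median, 0.51.

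More genes were called in the net comparison than in either of its steps, and whether more of them were higher or lower depended on the scaling and on the libraries in the fit. Calls were made where the adjusted p lay under 0.05 (edgeR's quasi-likelihood test, Benjamini-Hochberg over all 15051 genes). Between siSUV39H1 and DMSO 7251 genes were called (48.2% of those tested), 3358 higher (22.3%) and 3893 lower (25.9%) in siSUV39H1. Of these, 311 were higher by at least 2-fold (2.07%) and 652 lower by at least 2-fold (4.33%). The knockdown step called 5109 genes (33.9%), 2310 higher (15.3%) and 2799 lower (18.6%), with 172 (1.14%) and 340 (2.26%) past 2-fold. The control-siRNA step called 5293 (35.2%), 2552 higher (17.0%) and 2741 lower (18.2%), with 243 (1.61%) and 515 (3.42%) past 2-fold. The median size of the log2 change over all genes was 0.327 in the net comparison, 0.248 in the knockdown step and 0.252 in the control-siRNA step. Every comparison shares libraries with the others and the log2 changes of the steps add up to the net change, so the steps are given side by side as a description and are not independent of it. With the deposited TPM values in place of counts, the net split was 4689 higher and 2513 lower, with the median of all genes moved to 0.096 on the log2 scale, against -0.008 with counts. Higher genes then made up 65.1% of those called, against 46.3% with counts. More genes were also higher than lower with counts scaled by library totals only (4078 higher, 3320 lower, 55.1% higher) and in a fit of 9 libraries without chaetocin (3804 higher, 3198 lower, 54.3% higher).

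The transcript that the siRNA was made against was low in every knockdown library. SUV39H1 (chromosome X, 48695554 to 48709016, GRCh38.p14) had 5.73, 6.07 and 5.48 CPM in siSUV39H1 libraries, 18.7, 17.0 and 16.7 CPM in siNC libraries and 20.3, 19.6 and 24.6 CPM in DMSO libraries. The 3 groups did not overlap. Its net level was 0.268 of that in DMSO (log2 change -1.90 ± 0.11 SE, adjusted p = 7.36e-09), and most of it came with the knockdown step (-1.60 ± 0.11), while the control-siRNA step gave -0.30 ± 0.10 (adjusted p = 0.0316). SUV39H2 (chromosome 10, 14878866 to 14904315) overlapped between all groups, with 7.41, 8.87 and 6.53 CPM in siSUV39H1 libraries against 8.65, 7.19 and 6.28 CPM in DMSO libraries. Its net log2 change of 0.05 ± 0.16 did not pass the test (adjusted p = 0.837).

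AURKA and ZC3H12A, the genes named with SUV39H1 in the study's title, moved in opposite directions. AURKA (chromosome 20, 56369390 to 56392215) had 22.5, 18.4 and 18.7 CPM in siSUV39H1 libraries, 28.9, 30.8 and 29.5 CPM in siNC libraries and 35.9, 33.4 and 33.2 CPM in DMSO libraries. It fell in the net comparison (-0.78 ± 0.10, adjusted p = 1.17e-05) and in the knockdown step (-0.58 ± 0.10), and the control-siRNA step of -0.20 ± 0.10 did not pass (adjusted p = 0.119). ZC3H12A (chromosome 1, 37474580 to 37484377) had 42.0, 35.8 and 30.4 CPM in siSUV39H1 libraries, 19.3, 17.3 and 17.2 CPM in siNC libraries and 4.38, 4.72 and 6.07 CPM in DMSO libraries. The groups formed 3 separate levels, and the net rise was 7.13-fold (2.83 ± 0.14, adjusted p = 1.64e-09), of which the control-siRNA step made 1.83 ± 0.14 and the knockdown step 1.01 ± 0.12 on the log2 scale. For SUV39H1, AURKA and ZC3H12A the exact two-sided permutation p of the net comparison was 0.1, the smallest that 3 against 3 libraries allow.

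**Figure D2:**
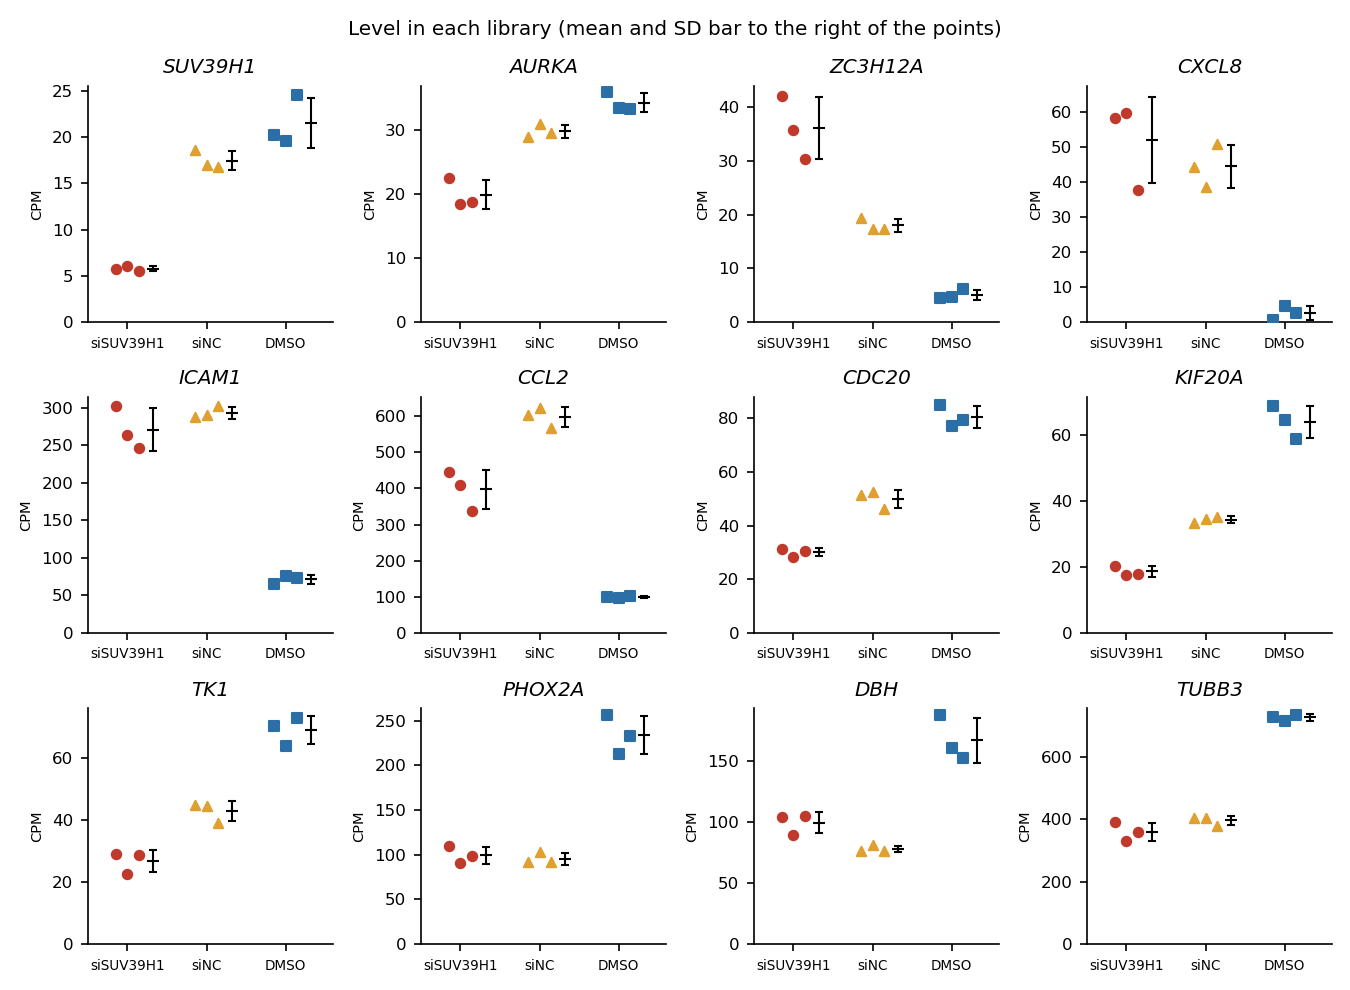
CPM of 12 genes in each siSUV39H1, siNC and DMSO library (points, with mean and SD of the 3 libraries beside them), each panel with its own axis from 0. SUV39H1, AURKA, CDC20, KIF20A and TK1 step down from DMSO through siNC to siSUV39H1, ZC3H12A steps up, and for ICAM1 and PHOX2A the transfected groups lie together, away from DMSO.

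Genes of H3K9 methylation changed in both directions. Of 22 listed writers, readers and erasers, all tested and SUV39H1 among them, 8 rose and 5 fell in the net comparison. This was 59.1% called, against 48.2% of all genes, with a median log2 change of 0.068. The count of 8 higher fell to 2 without siSUV39H1 replicate 2 and to 5 without DMSO replicate 2, and the list had 7 higher and 7 lower with the trend on gene length removed. Besides SUV39H1, those that fell were UHRF1, which brings DNA methyltransferase to hemimethylated DNA (-0.86 ± 0.08), the demethylase KDM1A (-0.48 ± 0.07), TRIM28, the corepressor of KRAB zinc finger proteins (-0.36 ± 0.08), and the methyltransferase EHMT2 (-0.30). The rises include the HP1 genes CBX3 (0.31) and CBX5 (0.28), while CBX1 was at -0.11 and not called. In the knockdown step, the test called 4 members higher and 3 lower, with SUV39H1 among the lower ones, 31.8% against 33.9% of all genes. Among 13 genes of the RNA interference machinery, 5 rose and 1 fell net (median 0.353), a share of 46.2% called against 48.2% of all genes. AGO4, an Argonaute protein, had 22.5, 20.9 and 21.2 CPM in siSUV39H1 libraries, 11.9, 11.7 and 13.9 in siNC and 10.4, 10.7 and 9.55 in DMSO, a net rise of 1.08 ± 0.10, mostly in the knockdown step (0.79 ± 0.10). TNRC6A, the scaffold that Argonaute binds, rose by 0.78 ± 0.14 net and was at -0.03 ± 0.14 in the knockdown step. The exporter of precursor miRNAs, XPO5, fell (-0.37 ± 0.07), a call lost with TPM values (adjusted p = 0.0804).

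NF-kB target genes and cytokines had the highest net median of the 27 gene lists examined, and a median as high was already present with siNC. Of 23 members tested, 20 rose, 1 fell and 2 did not pass in the net comparison, with a median log2 change of 1.712 against -0.008 for all genes. The control-siRNA step called 22 of 23 higher (median 1.828), and the knockdown step 4 higher and 6 lower (median -0.115). The promoters of the following chemokines and of ICAM1, taken from RefSeq (GRCh38.p14, from 250 bases before to 50 after the transcript start), are shown because these genes are described next, with the match to a kappa B type sequence, GGAANNTCC on either strand, in capitals.

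CXCL1 (chr4:73869143-73869442, plus strand): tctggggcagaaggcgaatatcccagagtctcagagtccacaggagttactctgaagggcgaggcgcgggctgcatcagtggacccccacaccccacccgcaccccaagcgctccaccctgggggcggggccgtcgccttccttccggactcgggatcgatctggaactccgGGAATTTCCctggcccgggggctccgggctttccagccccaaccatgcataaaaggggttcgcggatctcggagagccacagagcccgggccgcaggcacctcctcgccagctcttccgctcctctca
CXCL8 (chr4:73740319-73740618, plus strand): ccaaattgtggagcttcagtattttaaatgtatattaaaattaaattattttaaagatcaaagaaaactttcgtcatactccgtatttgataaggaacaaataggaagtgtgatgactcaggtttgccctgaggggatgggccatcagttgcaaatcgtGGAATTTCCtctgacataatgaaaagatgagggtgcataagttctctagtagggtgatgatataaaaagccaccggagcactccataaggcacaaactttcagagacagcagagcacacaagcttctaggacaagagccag
ICAM1 (chr19:10270870-10271169, plus strand): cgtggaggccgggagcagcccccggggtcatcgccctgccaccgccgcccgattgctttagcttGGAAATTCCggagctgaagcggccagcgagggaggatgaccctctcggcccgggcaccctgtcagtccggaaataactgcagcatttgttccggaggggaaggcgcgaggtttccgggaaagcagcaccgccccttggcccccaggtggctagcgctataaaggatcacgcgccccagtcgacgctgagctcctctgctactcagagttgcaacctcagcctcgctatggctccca

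The match begins 78 bases before the start in CXCL1, 91 in CXCL8 and 186 in ICAM1. Such a match was found in 11 of the 18 list members that have a promoter in the table (61.1%), and in 6.28% of all 12164 tested genes with one, counting any of a gene's starts. A match is a run of letters and no measure of binding.

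Among ligands, CXCL8, which attracts neutrophils, had 58.3, 59.9 and 37.8 CPM in siSUV39H1 libraries, 44.3, 38.6 and 50.9 CPM in siNC libraries and 0.528, 4.67 and 2.58 CPM in DMSO libraries. The transfected groups overlapped each other and lay above DMSO, with a net change of 4.32 ± 0.33 (adjusted p = 9.83e-08) and a knockdown step of 0.22 ± 0.24 that did not pass. CXCL1 and CXCL2, related chemokines acting on the same receptor, rose by 4.29 ± 0.30 and 5.11 ± 0.24. Their counts summed over 3 libraries were 740 and 659 in siSUV39H1 against 36 and 18 in DMSO, ratios of 19.7 (exact 95% interval 14.1 to 28.4) and 35.1 (22.1 to 59.7) that cover counting error only. Their sequences are near copies of each other, so reads may be split between them. CCL2, which attracts monocytes, had 445, 409 and 337 CPM in siSUV39H1 libraries, 603, 624 and 567 CPM in siNC libraries and 99.9, 96.8 and 102 CPM in DMSO libraries. It rose net (log2 change 1.995 ± 0.09) and fell in the knockdown step (-0.59 ± 0.09, adjusted p = 0.000107), with no overlap between any groups. The cytokine IL6 averaged 5.10 CPM with siSUV39H1, 3.52 with siNC and 0.613 with DMSO (net 3.04).

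The adhesion molecule ICAM1, which leukocytes bind, had 302, 264 and 247 CPM in siSUV39H1 libraries, 287, 291 and 302 CPM in siNC libraries and 65.1, 76.1 and 72.7 CPM in DMSO libraries. Its net rise was 1.93 ± 0.08 and its knockdown step -0.12 ± 0.08, not called. Inhibitors and subunits of the pathway rose net as well: NFKBIA (1.22) and the deubiquitinase TNFAIP3 (1.78), which both end the signal, and the subunits NFKB1 (0.96), NFKB2 (1.34) and RELB (0.91). RELB averaged 53.6 CPM with siSUV39H1, 81.9 with siNC and 28.5 with DMSO, and so was lower in siSUV39H1 than in siNC (-0.61). The mitochondrial superoxide dismutase SOD2 rose in both steps (0.62 and 0.88, net 1.51), as did ZC3H12A, CXCL2 and NFKB2, the 4 members called higher in the knockdown step. TNFAIP2 was the member that fell net (-0.78), and IL1B (0.44) and TRAF1 (-0.03) were not called.

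Interferon-stimulated genes and nucleic acid sensors had a smaller median rise than the NF-kB list, a difference that was not tested. Of 33 tested, 12 rose and 1 fell net (39.4% called, against 48.2% of all genes), with a median of 0.297. The transcription factor IRF1 rose net (0.67 ± 0.08) but was lower in siSUV39H1 than in siNC (-0.33 ± 0.08), and the double-stranded RNA sensor IFIH1 rose by 1.23 net from low levels (3.20 CPM with siSUV39H1, 1.37 with DMSO). The antiviral genes MX1 (0.30), OAS1 (-0.18), ISG15 (0.21) and IFI6 (0.03) were not called, and these 4 were chosen after their values were seen.

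The other large net rises were of SAA1, ELF3, LGSN, CEBPD, CLDN1 and ANGPT2. SAA1, an acute-phase apolipoprotein, had 16.0, 17.1 and 8.54 CPM in siSUV39H1 libraries, 6.43, 5.53 and 4.59 CPM in siNC libraries and 0.106, 0.105 and 0 CPM in DMSO libraries. With counts of 824 in siSUV39H1 against 4 in DMSO the ratio was 198 (95% interval 76.9 to 728), and reads may be shared with its near copy SAA2. ELF3, an epithelial transcription factor, had 19.3, 15.9 and 13.6 CPM in siSUV39H1 libraries, 5.29, 5.95 and 6.20 CPM in siNC libraries and 0.317, 0.577 and 0.580 CPM in DMSO libraries, a count ratio of 33.1 between siSUV39H1 and DMSO (22.7 to 50.0). In both genes the 3 groups formed separate levels. CEBPD, a transcription factor of the acute-phase response, rose 5.43-fold net (2.44 ± 0.13) and ANGPT2, a ligand of the endothelial receptor TEK, 5.24-fold (2.39 ± 0.17). CLDN1, a tight junction protein, rose 5.27-fold net (2.40 ± 0.13) with no called change in the knockdown step (-0.06 ± 0.11). LGSN rose 5.61-fold (2.49 ± 0.24), most of it in the knockdown step (1.80 ± 0.22). ANGPT2, LGSN and CLDN1 overlap other tested genes (MCPH1, PTP4A1 and CLDN16), and no strand setting of the counting is stated.

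Genes of mitosis fell in both steps and had the lowest net median of the 27 lists. Of 30 tested, 27 fell and 0 rose net, with a median of -1.065. Each step called 0 members higher: the knockdown step 18 lower (median -0.531) and the control-siRNA step 19 lower (median -0.505). Of 34 genes of DNA replication, 32 were lower net and 0 higher (median -0.807). Most of that was in the control-siRNA step (30 lower, 0 higher, median -0.557), where the knockdown step called 13 lower and 1 higher (median -0.17). The difference between the lists was not tested. Promoters of a member of each list are shown because fewer DNA replication promoters held the first motif below. That motif alone was counted in both lists. The capitals mark TTTGAA, the core of the cell cycle genes homology region (CHR), in CDC20, and TTTNNCGC, an E2F type sequence, in MCM3, on either strand.

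CDC20 (chr1:43358731-43359030, plus strand): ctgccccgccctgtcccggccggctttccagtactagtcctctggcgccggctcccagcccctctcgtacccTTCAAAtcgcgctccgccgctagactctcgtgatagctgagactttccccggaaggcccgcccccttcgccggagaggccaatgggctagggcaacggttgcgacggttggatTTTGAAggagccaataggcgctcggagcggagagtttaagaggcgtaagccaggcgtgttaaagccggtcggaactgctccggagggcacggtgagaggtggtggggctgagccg
MCM3 (chr6:52284693-52284992, minus strand): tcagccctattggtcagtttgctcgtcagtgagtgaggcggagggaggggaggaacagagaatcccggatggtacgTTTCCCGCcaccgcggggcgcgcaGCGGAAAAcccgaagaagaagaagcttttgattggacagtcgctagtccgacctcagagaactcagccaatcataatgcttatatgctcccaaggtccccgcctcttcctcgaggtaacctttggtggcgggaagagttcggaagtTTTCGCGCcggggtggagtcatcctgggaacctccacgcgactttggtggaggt

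TTTGAA was found in 17 of 25 mitosis promoters (68.0%), in 1 of 29 DNA replication promoters (3.45%) and in 14.5% of all 12164. TTTNNCGC was found in 19 of 29 DNA replication promoters (65.5%) and 12.3% of all. CCAAT, which lies a few bases after the second capital run in CDC20 and is bound by NF-Y, was found in 21 of 25 mitosis promoters (84.0%) and 42.9% of all. MCM3 was picked for its sequence after its values were seen. The lists were chosen by function, so these counts describe their promoters and are not a test.

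CDC20, the activator of the anaphase-promoting complex, had 31.4, 28.4 and 30.4 CPM in siSUV39H1 libraries, 51.4, 52.4 and 46.1 CPM in siNC libraries and 85.1, 77.0 and 79.5 CPM in DMSO libraries. The 3 groups formed separate levels, and its net level was 0.373 of that in DMSO (-1.42 ± 0.08, adjusted p = 3.49e-09). KIF20A, the kinesin of the cleavage furrow, had 20.4, 17.4 and 17.98 CPM in siSUV39H1 libraries, 33.3, 34.4 and 35.2 CPM in siNC libraries and 68.6, 64.4 and 58.9 CPM in DMSO libraries (net -1.78 ± 0.08). Cyclin B1 (CCNB1) fell by 1.35 ± 0.08 and BIRC5, or survivin, a subunit of the chromosomal passenger complex, by 1.47 ± 0.08 on the log2 scale. The steps were unequal for single members. CDK1 averaged 9.25 CPM with siSUV39H1, 20.4 with siNC and 22.6 with DMSO, and cyclin A2 (CCNA2) 36.6, 75.5 and 70.6 CPM, so that neither was called in the control-siRNA step. The proliferation marker MKI67 averaged 41.5 CPM with siSUV39H1, 44.3 with siNC and 89.8 with DMSO, and was not called in the knockdown step (-0.09). CENPE, HMMR and TTK were the members not called net.

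In DNA replication, TK1, thymidine kinase, had 29.2, 22.7 and 28.8 CPM in siSUV39H1 libraries, 44.9, 44.6 and 39.1 CPM in siNC libraries and 70.3, 64.1 and 73.1 CPM in DMSO libraries (net -1.36 ± 0.10). The ribonucleotide reductase subunit RRM2 fell by 1.09 ± 0.08, the helicase subunit MCM2 by 0.92 ± 0.07 and the polymerase subunit POLD1 by 0.79 ± 0.07. MCM3, another helicase subunit, averaged 63.6 CPM with siSUV39H1, 68.4 with siNC and 112 with DMSO, and was not called in the knockdown step (-0.10). PCNA, the sliding clamp of the replication fork, was not called net (-0.12). MYC, which drives cell growth genes, had 19.4, 17.7 and 17.3 CPM in siSUV39H1 libraries, 24.0, 24.6 and 24.7 CPM in siNC libraries and 35.99, 29.7 and 30.1 CPM in DMSO libraries, falling in both steps (net -0.82 ± 0.11). MYCN, its neuroblastoma relative, was low, with 2.15, 1.81 and 1.66 CPM in siSUV39H1 libraries, 0.933, 1.42 and 0.756 CPM in siNC libraries and 3.85, 3.25 and 2.53 CPM in DMSO libraries. Its net change of -0.78 ± 0.26 (adjusted p = 0.0215) was lost without siSUV39H1 replicate 2 or 3 or DMSO replicate 1 or 2 (adjusted p = 0.0544 to 0.0984).

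Targets of p53, the transcription factor that halts the cell cycle after stress, rose. Of 27 tested, 21 rose and 2 fell net (median 0.633, 85.2% called against 48.2% of all genes). The control-siRNA step called 19 higher and 2 lower (median 0.445, 77.8% against 35.2%). The knockdown step called 13 higher and 5 lower (median 0.212, 66.7% against 33.9%). SESN2, a stress-induced inhibitor of mTORC1, had 131, 109 and 117 CPM in siSUV39H1 libraries, 69.5, 66.8 and 67.5 CPM in siNC libraries and 47.3, 54.8 and 50.5 CPM in DMSO libraries (net 1.23 ± 0.08). The secreted stress marker GDF15 rose by 1.48 ± 0.11, cyclin G1 (CCNG1) by 1.03 ± 0.07 and the death receptor TNFRSF10B by 0.91 ± 0.06. CDKN1A, the p21 inhibitor of cyclin-dependent kinases, averaged 2015 CPM with siSUV39H1, 1878 with siNC and 1243 with DMSO (net 0.70), and MDM2, the ligase that degrades p53, rose by 1.15. The ferredoxin reductase FDXR (0.78) and the repair gene DDB2 (0.55) rose in the knockdown step with no call in the control-siRNA step. TP53INP1 and PLK2 fell net (-0.49 and -0.37).

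Among 28 regulators of apoptosis, 11 rose and 4 fell net, with a median of 0.104 and a share of 53.6% called, near the 48.2% of all genes. MCL1, a survival factor of the BCL2 family, had 423, 420 and 408 CPM in siSUV39H1 libraries, 375, 389 and 421 CPM in siNC libraries and 239, 218 and 208 CPM in DMSO libraries (net 0.91 ± 0.07), with the transfected groups overlapping. Of 25 genes of the ATF4 and unfolded protein responses, 14 rose and 2 fell net (median 0.343, 64.0% called). CHAC1, which degrades glutathione, had 39.04, 34.5 and 33.5 CPM in siSUV39H1 libraries, 25.0, 22.8 and 21.2 CPM in siNC libraries and 13.03, 12.9 and 13.3 CPM in DMSO libraries (net 1.45 ± 0.10). The transcription factor DDIT3 rose by 1.15 ± 0.11 and the endoplasmic reticulum chaperone DNAJB9 by 1.23 ± 0.11, both with no call in the knockdown step.

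Most genes of the noradrenergic and neuronal state fell with the control siRNA, and some were higher again with siSUV39H1. Of 20 noradrenergic genes tested (23 listed), 16 fell and 1 rose net (median -0.593). The control-siRNA step called 17 lower and 2 higher (median -0.895), and the knockdown step 7 higher and 1 lower (median 0.235). PHOX2A, a homeodomain factor of the sympathetic lineage, had 109, 90.4 and 99.0 CPM in siSUV39H1 libraries, 91.2, 103 and 91.6 CPM in siNC libraries and 256, 213 and 233 CPM in DMSO libraries. The transfected groups overlapped each other and lay below every DMSO library (net -1.23 ± 0.09). DBH, which makes noradrenaline, had 104, 89.4 and 105 CPM in siSUV39H1 libraries, 76.3, 81.1 and 76.2 CPM in siNC libraries and 188, 161 and 153 CPM in DMSO libraries, so that siSUV39H1 lay between both (net -0.75 ± 0.08, knockdown step 0.35 ± 0.08). HAND2 followed the same order, with a net change of -0.48 ± 0.08 and a knockdown step of 0.45 ± 0.08, and TBX2 likewise (-0.86 ± 0.07 and 0.42 ± 0.07). The noradrenaline transporter SLC6A2 averaged 68.1 CPM with siSUV39H1, 43.7 with siNC and 89.2 with DMSO. GCH1, which makes a cofactor of catecholamine synthesis, was the member that rose net (0.51).

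Of 35 genes of the neuronal cytoskeleton, growth cone and synapse, 22 fell and 6 rose net (median -0.443). The control-siRNA step called 26 lower and 3 higher (82.9% called against 35.2% of all genes). The knockdown step called 12 higher and 4 lower (45.7% against 33.9%). The neuronal tubulin TUBB3 had 390, 330 and 359 CPM in siSUV39H1 libraries, 405, 406 and 381 CPM in siNC libraries and 729, 717 and 737 CPM in DMSO libraries, a net log2 change of -1.02 ± 0.07, with no call in the knockdown step (-0.14 ± 0.07). TUBB2B (-1.07 ± 0.07) and RTN1 (-0.97 ± 0.10) fell as well. DCX, a microtubule protein of migrating neurons, averaged 30.5 CPM with siSUV39H1, 15.5 with siNC and 31.6 with DMSO, and was not called net (-0.05). MAP2, of the dendritic cytoskeleton, averaged 33.3 CPM with siSUV39H1, 16.7 with siNC and 27.1 with DMSO, and was not called net either. The 6 that rose were SCG2, SCG5, NCAM1, SYT1, DPYSL3 and CBLN2, the last of which organizes synapses. CBLN2 had 24.4, 22.8 and 25.6 CPM in siSUV39H1 libraries, 7.26, 8.27 and 6.95 CPM in siNC libraries and 11.3, 10.7 and 10.1 CPM in DMSO libraries (net 1.18 ± 0.11).

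Mesenchymal genes as a list changed without a shared direction, while 4 of its 5 marker genes fell. Of 29 tested, 7 rose and 11 fell net (median -0.182, 62.1% called), counts that turned to 9 higher and 7 lower with TPM values. With counts, the control-siRNA step called 13 higher and 5 lower and the knockdown step 3 higher and 11 lower. The 5 markers, PRRX1, TWIST1, VIM, FN1 and CD44, were all called net, 4 lower and 1 higher (median -0.477). With TPM values 2 of these were lower and 1 higher. CDH2, N-cadherin, had 811, 806 and 782 CPM in siSUV39H1 libraries, 486, 521 and 532 CPM in siNC libraries and 520, 497 and 504 CPM in DMSO libraries, a rise of 0.66 ± 0.06 that came with the knockdown step. NOTCH2 had 114, 111 and 121 CPM in siSUV39H1 libraries, 258, 239 and 276 CPM in siNC libraries and 202, 187 and 154 CPM in DMSO libraries (net -0.65 ± 0.09). The growth factor receptor EGFR (-0.80) and the transcription factor SOX9 (-0.90 ± 0.10) fell net, and TGFBR2 rose (0.66 ± 0.07).

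Of 35 genes of collagens and extracellular matrix, 15 rose and 12 fell net (median 0.300, 77.1% called against 48.2% of all genes). NID2, a basement membrane protein, had 194, 177 and 185 CPM in siSUV39H1 libraries, 86.8, 80.4 and 94.7 CPM in siNC libraries and 93.1, 86.1 and 74.8 CPM in DMSO libraries (net 1.13 ± 0.08, knockdown step 1.08 ± 0.08), and shares part of its span with RTRAF. The microfibril protein FBN2 rose by 0.91 ± 0.08 and the proteoglycan LUM by 0.90 ± 0.08, the first with the knockdown step (0.75 ± 0.08) and the second with the control-siRNA step (0.83 ± 0.08). COL6A3, a collagen VI chain, fell to 4.57, 3.67 and 4.72 CPM in siSUV39H1 libraries, against 8.55, 8.64 and 10.5 CPM in siNC and 17.1, 17.1 and 14.6 CPM in DMSO (net -1.91 ± 0.13). Actin and YAP or SRF target genes split as well, with 12 of 30 higher and 9 lower net (70.0% called). ANKRD1, a YAP target, had 49.1, 53.4 and 50.0 CPM in siSUV39H1 libraries, 50.7, 54.9 and 48.4 CPM in siNC libraries and 19.6, 16.1 and 16.6 CPM in DMSO libraries (net 1.55 ± 0.10, knockdown step -0.01 ± 0.09). The focal adhesion protein ZYX fell in both steps (net -0.88 ± 0.09), as did FLNA, a crosslinker of actin (-0.64).

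Genes of glycolysis, ribosomes and respiration fell on balance. LDHA, lactate dehydrogenase A, had 400, 356 and 381 CPM in siSUV39H1 libraries, 1026, 1069 and 957 CPM in siNC libraries and 1146, 1091 and 1088 CPM in DMSO libraries. It fell to 0.342 of the DMSO level (-1.55 ± 0.07, adjusted p = 8.07e-10), nearly all of it in the knockdown step (-1.42 ± 0.07). Of the 33 hypoxia and glycolysis genes it belongs to, 19 fell and 7 rose net (median -0.36). The other steps of glycolysis fell less, such as PKM (-0.48), ENO1 (-0.55) and GAPDH (-0.47), while the neuronal glucose transporter SLC2A3 rose by 1.11 ± 0.08. CA9, a hypoxia-induced carbonic anhydrase, had 2.15, 1.23 and 1.81 CPM in siSUV39H1 libraries against 4.91, 5.87 and 6.01 CPM in DMSO libraries (-1.70 ± 0.21). Of 30 MYC targets and ribosome biogenesis genes, 18 fell and 2 rose net (median -0.322), among them BOP1 (-0.86 ± 0.08) and MRTO4 (-0.72 ± 0.09), which mature the large ribosomal subunit, and ODC1 (-0.65 ± 0.07), which starts polyamine synthesis. NOLC1, a nucleolar protein of the list, averaged 120 CPM with siSUV39H1, 51.1 with siNC and 118 with DMSO. The E box CACGTG that MYC binds was in 14 of 24 promoters of the list (58.3%), against 12.1% of all. It was also in 6 of 20 promoters of the lysosome and autophagy list described below, where most genes rose net. Both lists were chosen by function, so these counts describe their promoters only. A part of MYC in either list was not tested.

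Cytosolic ribosomal protein genes fell by small amounts. Of 84 tested, 68 fell and 0 rose net (median -0.348), 53 fell and 1 rose in the knockdown step (median -0.273), and 4 fell and 2 rose in the control-siRNA step (median -0.079). Without DMSO replicate 3 the net count of 68 lower fell to 40. RPLP0, of the ribosomal stalk, had 2133, 1889 and 2017 CPM in siSUV39H1 libraries, 2617, 2802 and 2301 CPM in siNC libraries and 2790, 3009 and 3062 CPM in DMSO libraries (net -0.55 ± 0.08). RPL22L1, a paralog of a large-subunit protein, fell by 1.01 ± 0.13. Of 79 nuclear-encoded respiratory chain genes, 49 fell and 3 rose net (median -0.265), led by the complex II subunit SDHA (-0.80 ± 0.06) and the complex I subunit NDUFC2 (-0.80 ± 0.09), whose span is shared with a read-through gene. Without DMSO replicate 3 the count of 49 lower fell to 28. NDUFA5, SDHD and UQCRB rose. The 37 proteasome subunits had 9 higher and 9 lower (median 0.006), 48.6% called against 48.2% of all genes, and 21 higher and 4 lower with TPM values. Their 9 lower became 14 without siSUV39H1 replicate 1, 5 without siSUV39H1 replicate 3, and 4 without siSUV39H1 replicate 2 or DMSO replicate 3.

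Gene length moved with these changes. Over 5 classes of effective length with like numbers of genes, from the shortest (167 to 1708 bases) to the longest (5138 to 65065), the median net log2 change was -0.167, -0.058, -0.001, 0.086 and 0.127. In the shortest class 11.6% of genes were called higher and 35.8% lower, and in the longest 27.7% higher and 18% lower. The same order was seen in the knockdown step, from -0.115 to 0.112, and in the control-siRNA step, from -0.057 to 0.049. With the trend on length taken out of the log2 values, an alternative added after seeing the data, 7624 genes were called net (3583 higher, 4041 lower). The ribosomal protein list then had 57 lower and 2 higher (median -0.188) and the respiratory chain list 36 lower and 5 higher (median -0.122). In the knockdown step the ribosomal proteins had 44 lower and 1 higher (median -0.139) and the respiratory chain 18 lower and 15 higher, against 26 lower and 5 higher before. In the control-siRNA step the ribosomal proteins had 17 lower and 5 higher (median -0.052). The proteasome list turned to 17 higher and 9 lower net, and heat shock genes to 7 higher in the knockdown step, against 3 before. Mitosis was little moved by it, with 27 lower and 0 higher (median -1.09). NF-kB targets again had 20 higher and 1 lower (median 1.705).

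**Figure D3:**
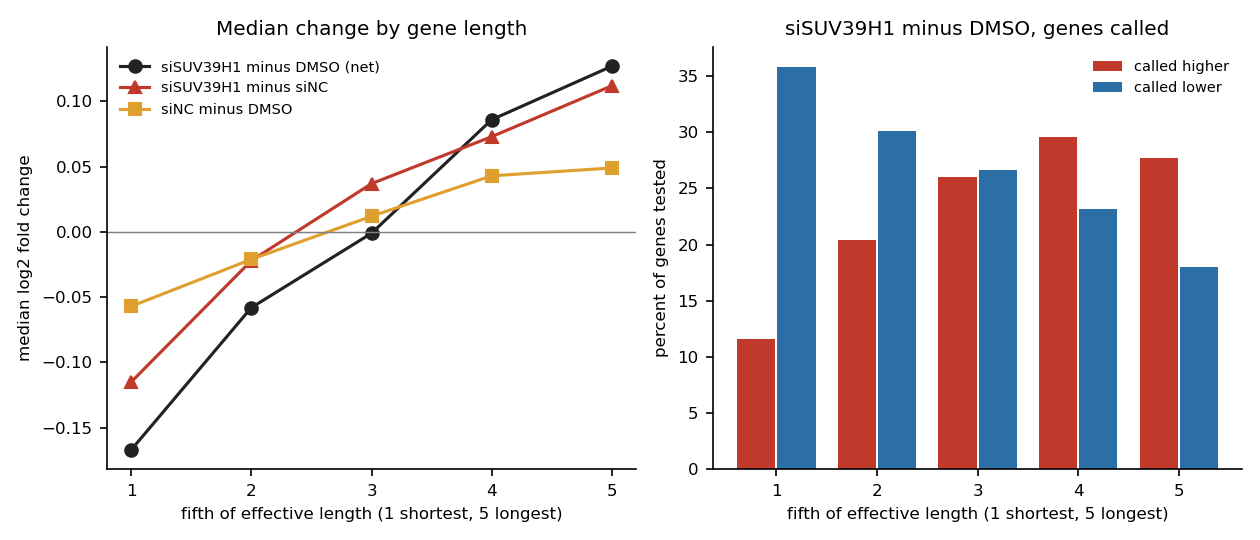
Left, median log2 fold change by class of effective gene length (5 classes, short to long) in the net comparison, the knockdown step and the control-siRNA step. Right, percent of tested genes called higher or lower in siSUV39H1 than in DMSO in each class, where lower calls go from 35.8% in the shortest to 18% in the longest.

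Genes of lysosomes and autophagy rose net, 20 of 28 with 1 lower (median 0.375, 75.0% called against 48.2% of all genes). The control-siRNA step called 21 higher and 1 lower (78.6% against 35.2% of all genes). The knockdown step called 7 higher and 3 lower (median 0.017), a share of 35.7% near the 33.9% of all genes. GPNMB, a lysosomal membrane glycoprotein, had 567, 518 and 475 CPM in siSUV39H1 libraries, 536, 589 and 549 CPM in siNC libraries and 210, 232 and 225 CPM in DMSO libraries (net 1.23 ± 0.07). The autophagy receptor SQSTM1 rose by 0.86 ± 0.09 with no call in the knockdown step (-0.02 ± 0.08). GABARAPL1, which binds autophagosomes, rose in both steps (net 0.91 ± 0.07). Among 21 NRF2 and redox genes, 10 rose and 4 fell net (median 0.159, 66.7% called against 48.2% of all genes). ME1, malic enzyme, had 38.6, 40.7 and 39.2 CPM in siSUV39H1 libraries, 16.2, 16.4 and 17.0 CPM in siNC libraries and 20.7, 21.2 and 21.8 CPM in DMSO libraries (net 0.89 ± 0.07), and PIR rose likewise in the knockdown step (1.11 ± 0.09). The thioredoxin reductase TXNRD1 rose by 0.87 ± 0.09 in the net comparison, and the peroxiredoxin PRDX1 fell by 0.72 ± 0.07.

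Several lists had shares of called genes near or under the 48.2% of all genes. Of 23 cholesterol synthesis and uptake genes 5 rose and 3 fell net (34.8% called, with 7 lower without siSUV39H1 replicate 1 and 2 without siSUV39H1 replicate 2), of 17 heat shock genes 7 rose and 2 fell (52.9%), of 9 aryl hydrocarbon receptor genes 4 rose and 0 fell, and of 6 metallothioneins tested 1 rose and 0 fell. MT2A averaged 205 CPM with siSUV39H1, 367 with siNC and 207 with DMSO, a rise in the control-siRNA step (0.83) and a fall in the knockdown step (-0.84). CYP1B1, a target of the aryl hydrocarbon receptor, had 22.02, 31.1 and 30.3 CPM in siSUV39H1 libraries, 7.31, 5.69 and 8.57 CPM in siNC libraries and 11.7, 13.4 and 11.9 CPM in DMSO libraries (net 1.18 ± 0.16). Of 33 immediate early genes 8 were higher and 8 lower net (48.5% called), and 12 and 6 with TPM values. ATF3 rose in both steps (net 1.61 ± 0.19), and DUSP1, a phosphatase of MAP kinases, fell with the knockdown step (net -0.82 ± 0.10). EGR1 averaged 19.6 CPM with siSUV39H1, 8.65 with siNC and 19.6 with DMSO, and was not called net. Of 484 ZNF genes, many of them KRAB zinc finger repressors, 90 rose and 44 fell net (27.7% called, under the 48.2% of all genes; median 0.142). The 90 higher became 127 without siSUV39H1 replicate 1, 47 without siSUV39H1 replicate 2 and 53 without siSUV39H1 replicate 3. The knockdown step called 84 higher and 19 lower (median 0.194) and the control-siRNA step 15 higher and 59 lower (median -0.058). ZNF217 rose (0.97 ± 0.11), and ZNF423, a factor of neuroblast differentiation, had 26.4, 22.8 and 28.0 CPM in siSUV39H1 libraries, 18.1, 16.0 and 17.5 in siNC and 61.5, 48.0 and 46.0 in DMSO (net -1.01 ± 0.11).

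**Figure D4:**
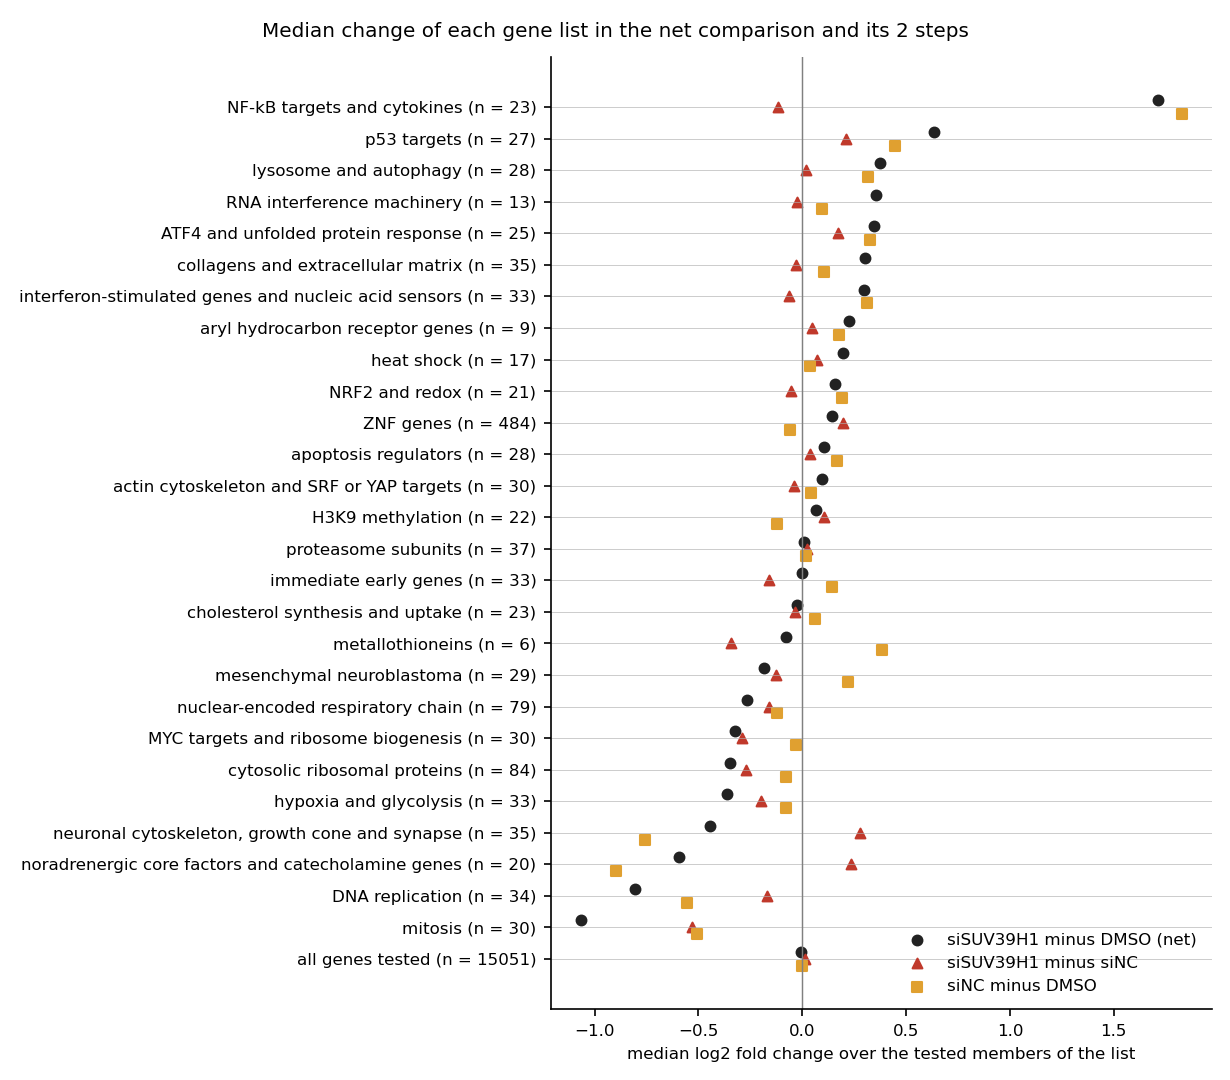
Median log2 fold change over the tested members of each of 27 gene lists, and over all 15051 genes, in the net comparison, the knockdown step and the control-siRNA step. NF-kB targets have the highest net median (1.712) with the knockdown step near 0, mitosis has the lowest (-1.065) with both steps below 0, and the neuronal and noradrenergic lists have steps on opposite sides of 0.

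For the 10 largest called net falls whose groups did not overlap and whose mean reached 5 CPM, the knockdown step was the larger in 9. How the steps compare over all called net falls was not counted. Among the 10 largest net rises, the control-siRNA step was the larger for SAA1, CXCL2, CXCL8, ELF3 and ZC3H12A. The knockdown step was the larger for LGSN. GALNT15, a glycosyltransferase that starts O-linked sugar chains, had 2.52, 2.50 and 1.81 CPM in siSUV39H1 libraries, 11.3, 11.2 and 12.2 CPM in siNC libraries and 14.4, 15.5 and 13.03 CPM in DMSO libraries (net -2.65 ± 0.14, knockdown step -2.34 ± 0.14). IGSF8, a membrane protein bound to tetraspanins, had 28.3, 25.2 and 30.04 CPM in siSUV39H1 libraries, 120, 128 and 114 CPM in siNC libraries and 106, 118 and 126 CPM in DMSO libraries. Its groups without the knockdown overlapped, and the net fall of 2.07 ± 0.09 was that of the knockdown step (2.12 ± 0.09). The histone chaperone ASF1B (-2.18 ± 0.10), the cysteine desulfurase NFS1, which supplies sulfur to iron-sulfur clusters (-1.97 ± 0.08), and the estrogen-binding receptor GPER1 (-1.95 ± 0.15) fell in both steps, as did GNGT2 (-2.12 ± 0.12), ABI3 (-2.00 ± 0.16) and ISLR (-2.14 ± 0.12). HGF, the ligand of the MET receptor, differed from these. It had 2.52, 3.48 and 3.32 CPM in siSUV39H1 libraries, 1.97, 1.74 and 2.07 CPM in siNC libraries and 14.4, 15.5 and 13.03 CPM in DMSO libraries, and its net fall (-2.20 ± 0.14) lay in the control-siRNA step (-2.89 ± 0.15), with siSUV39H1 above siNC (0.69 ± 0.17).

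Genes are named taken back where the test called the knockdown step opposite to the control-siRNA step. Shown are the 6 with the largest knockdown step among those that the control-siRNA step changed by at least 2-fold. Whether loss of SUV39H1 or an effect of siNC alone lay behind these 6 was not tested. The rule chose them on these steps, so their values are a description with no test. NPTX1, a neuronal pentraxin of excitatory synapses, had 2.58, 2.69 and 2.26 CPM in siSUV39H1 libraries, 22.6, 22.2 and 23.6 CPM in siNC libraries and 5.65, 6.92 and 4.54 CPM in DMSO libraries. The knockdown libraries thus lay below both other groups. PRSS35, a serine protease homolog, had 34.4, 34.1 and 34.2 CPM in siSUV39H1 libraries, 5.81, 6.42 and 6.75 CPM in siNC libraries and 16.2, 16.2 and 20.7 CPM in DMSO libraries, and so overshot the DMSO level upward. TPM4, a tropomyosin of the actin cytoskeleton, had 939, 894 and 872 CPM in siSUV39H1 libraries, 273, 276 and 291 CPM in siNC libraries and 795, 738 and 694 CPM in DMSO libraries. CMTM8, the growth factor GDF5 and the homeodomain repressor TGIF1 were higher with siNC and ended below DMSO with siSUV39H1, at 2.74 ± 0.689, 5.26 ± 0.589 and 7.91 ± 0.666 CPM against 5.51 ± 0.832, 9.83 ± 0.719 and 12.7 ± 0.300 CPM with DMSO (mean ± SD, n = 3 each). The rule makes siNC the highest or lowest group mean in all 6. The siSUV39H1 mean lay at the other end in each, beyond DMSO. Choosing the largest knockdown steps favors such genes, and their share among all genes taken back was not counted.

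Genes named added to are those called the same way in both steps, and the 6 with the largest smaller step are shown. These were also chosen on the steps and carry no test. They are ZC3H12A, SAA1, ELF3, CEBPD and ANGPT2, which rose, and ISLR, an immunoglobulin-domain protein of mesenchymal cells, which fell. CEBPD had 44.98, 41.7 and 35.8 CPM in siSUV39H1 libraries, 22.9, 22.9 and 17.6 CPM in siNC libraries and 6.54, 8.08 and 7.91 CPM in DMSO libraries. ANGPT2 had 20.02, 31.3 and 25.1 CPM in siSUV39H1 libraries, 11.2, 9.85 and 14.2 CPM in siNC libraries and 4.06, 5.35 and 5.17 CPM in DMSO libraries. ISLR had 5.31, 4.21 and 4.82 CPM in siSUV39H1 libraries, 10.1, 11.5 and 9.93 CPM in siNC libraries and 18.8, 21.1 and 23.2 CPM in DMSO libraries. No groups of these 6 genes overlapped. The choice on both steps favors such genes, and their share over all genes was not counted.

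**Figure D5:**
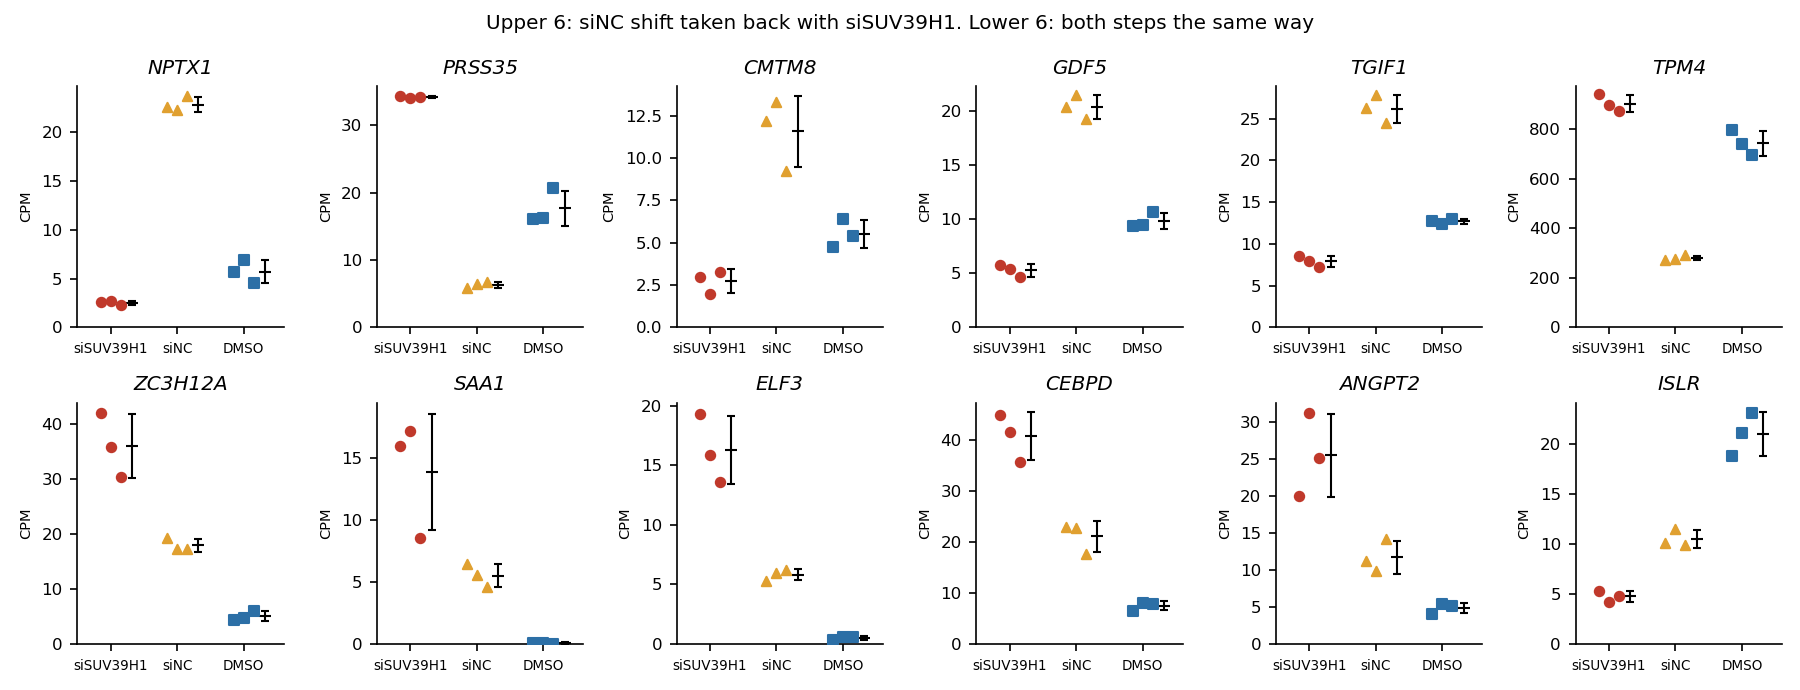
CPM per library for 6 genes whose siNC shift was taken back with siSUV39H1 (upper row) and 6 genes whose steps went the same way (lower row), with mean and SD of the 3 libraries beside the points. The rule that chose the genes makes siNC the extreme mean in the upper row and the middle mean in the lower row.

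Markers of other cell types were low or at levels set by single genes, and some of each list did not pass the filter on low counts. Endothelial markers (4 of 7 tested) summed to 3.89 to 4.70 CPM in siSUV39H1 libraries and 3.8 to 4.48 in DMSO, and blood markers (5 of 8) to 1.73 to 1.96 against 2.64 to 2.90 CPM. Schwann or glial markers (6 of 8) summed to 30.51 to 31.95 CPM in siSUV39H1 libraries, 56.2 to 59.1 in siNC and 54.8 to 56.3 in DMSO, mostly PMP22, a myelin gene also expressed outside glia (25.2, 46.8 and 48.5 CPM on average). Epithelial markers (9 of 10) summed to 143 to 166 CPM in siSUV39H1 libraries, 112 to 132 in siNC and 104 to 123 in DMSO, mostly KRT18 and KRT8, and included the rise of ELF3, while EPCAM and CDH1 stayed under 1 CPM on average in each group. Fibroblast markers (7 of 7), mostly COL1A1, summed to 10708 to 12651 CPM in siSUV39H1 libraries, 12527 to 12979 in siNC and 10183 to 10888 in DMSO. Their part in the changes above was not tested.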

How the data were processed

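RNA of 12 SK-N-SH libraries was measured, 3 each of siSUV39H1, siNC, chaetocin and DMSO. The deposited tables hold expected counts, TPM and FPKM per gene, made by the authors. The build hg38 and the tools RSEM 1.3.1, Bowtie2 and DESeq2 1.4.5 are listed in the submitters' processing notes, without their roles. No column of samples was left unmapped (0). Expected counts were rounded, genes were kept by edgeR's filterByExpr (15051 of 18739), and libraries were scaled by TMM. A quasi-likelihood model (edgeR 4.0.16, R 4.3.3) with a mean per group was fitted over all 12 libraries (8 residual degrees of freedom, biological coefficient of variation 8.87%), and p-values were adjusted by Benjamini-Hochberg over all genes tested. Count ratios carry exact 95% intervals, which cover counting error only. The deposited TPM values were used as log2(TPM + 1) in limma 3.58.1 as an alternative, and the deposited FPKM values only for effective lengths and totals. DESeq2 1.42.0, limma-voom, other scalings and filters, a replicate block and leaving out each library were tried as well. The scripts were tested on simulated data. Gene positions and promoters come from RefSeq (GRCh38.p14), which matched 18574 of 18739 gene IDs.

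Genes were named by a rule: the study's genes with MYC, MYCN and SUV39H2, the 10 largest net rises and falls that were called, reached 5 CPM on average and had groups that did not overlap, 6 genes taken back and 6 added to, and up to 4 called members of smallest p in each list. Some genes that the rule names are not reported here. Other list members named were chosen after their values were seen. The comparison, the genes and the lists were chosen with earlier results of these data known.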

Additional observations from a re-analysis of the deposited data

How the results depend on the processing

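The net comparison called 5967 (without siSUV39H1 replicate 2) to 7718 (without siSUV39H1 replicate 1) genes when a library was left out, against 7251 with all. With log2(TPM + 1) values 2513 genes were lower and 144 lower by at least 2-fold, against 3893 and 652 with counts, and the cause was not tested. The steps gave 83 genes higher and 110 lower by at least 2-fold between siSUV39H1 and siNC with TPM values, against 172 and 340 with counts, and 107 and 117 between siNC and DMSO, against 243 and 515. The median distance between siSUV39H1 and DMSO libraries was 0.466 with no filter on low counts, against 0.51. No paired design is stated. Same-numbered libraries of siSUV39H1 and DMSO deviated from their group means with correlations of -0.132, 0.078 and -0.114, so the numbers do not pair them. Between siSUV39H1 and siNC the same-numbered values were -0.13, -0.438 and 0.228. Libraries of these groups with different numbers reached -0.481 (1 with 3) and 0.522 (1 with 2). Some siSUV39H1 and siNC libraries thus shared variation that no label names, and its part in the knockdown step was not tested. A fit with a replicate block called 6675 genes net (3085 higher, 3590 lower, with 302 and 642 past 2-fold). It called 4465 in the knockdown step and 4711 in the control-siRNA step. Among 147 named genes, calls of the net comparison were lost in 17 of the gene and setting pairs, in MYCN, XPO5, CYP1A2, FN1 and KRT18. Another 2625 pairs kept the call, or the lack of it. No named gene changed sign where it was called in either fit, and signs of genes called in neither were not counted. Most of these genes were named for a small p or a large change in the same net comparison. Their calls were thus likely to hold, and these counts are no test of them. Calls of single genes in the knockdown and control-siRNA steps were not checked in this way. The balance of the net calls did turn, from more lower with counts (3358 higher, 3893 lower) to more higher with TPM values (4689 and 2513), with library totals only (4078 and 3320) and without chaetocin libraries (3804 and 3198), and the mesenchymal list turned to 9 higher and 7 lower with TPM values. List counts of 4 or fewer moved by over 1.5 times when 1 library was left out in several lists, such as heat shock genes lower (2, with 1 to 4). Depth limits genes of few CPM, such as MYCN.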
